A study of Mus musculus with 2 samples.

Results

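Microtubule-associated proteins and stathmins set how stable the microtubules of a cell are, and 10 genes of this kind were followed through single cells of mouse midbrain: Map1a, Map1b, Map2, Mapt, Map4, Map7d2, Macf1, Stmn1, Stmn3 and Stmn4. They were found by symbol among the 31053 genes of the matrices, and all 10 were measured. The list was chosen by values already seen in these libraries, among them the ratios of the treated to the control library in neuron-like cells, so every such ratio is given as a description. There were 2 droplet libraries (10x Genomics Chromium) of C57BL/6 mice, in which each cell barcode carries counts of unique molecular identifiers (UMIs), 1 per captured RNA molecule. The MNPQ mice were 10 weeks old when they began to receive paraquat at 10 mg/kg and, an hour later, maneb at 30 mg/kg, by intraperitoneal injection, 2 times a week for 3 weeks. Maneb and paraquat are a fungicide and a herbicide that are used together to model Parkinson's disease. The control mice are labelled untreated, but the protocol has them injected with saline on the same schedule. Cells of 3 males per group were taken according to the protocol, whereas the sex label says pooled, and each group ended as 1 library. With 1 library per group no test was possible, and mice, dissection, library and treatment cannot be told apart.

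Microtubules are polymers of tubulin that give axons and dendrites their shape and serve as tracks for transport. Map1a, Map1b, Map2 and Mapt (the gene of tau) encode proteins that lie along microtubules and stabilise them: Map1b is typical of growing axons, Map1a of mature neurons, Map2 of dendrites, and tau of axons. Map4 is the broadly expressed relative of tau and Map2, Map7d2 belongs to the family of MAP7 proteins, which bring kinesin-1 to microtubules, and Macf1 is a very large protein that links microtubules to actin. Stathmins work the other way, by binding free tubulin and favouring disassembly. Stmn1 is the widespread form, while Stmn3 and Stmn4 are known as neuronal forms that attach to membranes.

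After removal of barcodes with fewer than 200 genes or more than 20% mitochondrial UMIs, 882 of 1105 control and 854 of 965 MNPQ barcodes remained, with 2002640 and 1958634 UMIs and a median of 974 and 945.5 UMIs per cell. The libraries shared 2 barcode sequences, 1 of them among kept cells. Classes were named from marker genes and carry the ending -like. The clusters behind them were drawn without the 10 genes, so a gene's level across classes did not shape the classes. Of the classes, 5 held at least 30 cells in each library and were compared between libraries: neuron-like (116 control and 142 MNPQ cells), astrocyte-like (323 and 299), oligodendrocyte-like (73 and 117), microglia-like (193 and 141) and endothelial-like (74 and 68). The tissue is labelled as substantia nigra pars compacta, the seat of the dopaminergic neurons lost in Parkinson's disease, but Th and Slc6a3, which define these neurons, each had 1 control UMI and 0 MNPQ UMIs. Nothing here therefore describes dopaminergic neurons.

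On the mouse assembly mm10, Map1b (ENSMUSG00000052727) lies on chromosome 13 from 99421446 to 99516540 on the minus strand, and its longest annotated transcript has 11808 bases. Map1a (ENSMUSG00000027254) lies on chromosome 2 from 121289600 to 121310832, plus strand, with a longest transcript of 11825 bases. Macf1 (ENSMUSG00000028649) takes up 334728 bases of chromosome 4, from 123349633 to 123684360 on the minus strand, and has the longest transcript of the 10 genes, at 23495 bases. Map7d2 (ENSMUSG00000041020) is on the X chromosome, from 159414572 to 159498757, plus strand. The 3 stathmin genes are short, with spans of 5524 bases for Stmn1, 8042 for Stmn3 and 17385 for Stmn4, and their longest transcripts have 1060, 1136 and 1361 bases. Exons of Map1a overlap those of Ppip5k1 on the opposite strand and exons of Map2 overlap the antisense gene Gm10558. Those neighbours had 37 and 2 UMIs in all kept cells, against 343 for Map1a and 286 for Map2.

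Map1b, Map7d2 and Macf1 were the members at least 2-fold lower in the MNPQ library among neuron-like cells, and the 250 bases before their RefSeq starts are shown because these 3 had the lowest ratios there. The sequences are RefSeq's for the build GRCm38.p6, read 5′ to 3′ on the gene's strand, and 7 of the 10 members had an entry. Capitals mark matches on either strand to GGGCGG, the GC box bound by Sp1, or to TGACG, the half-site bound by CREB. The Map1b window is chr13:99516603-99516852 on the minus strand, that of Map7d2 (the first of 2 entries) is chrX:159414322-159414571 on the plus strand, and that of Macf1 is chr4:123684361-123684610 on the minus strand.
Map1b: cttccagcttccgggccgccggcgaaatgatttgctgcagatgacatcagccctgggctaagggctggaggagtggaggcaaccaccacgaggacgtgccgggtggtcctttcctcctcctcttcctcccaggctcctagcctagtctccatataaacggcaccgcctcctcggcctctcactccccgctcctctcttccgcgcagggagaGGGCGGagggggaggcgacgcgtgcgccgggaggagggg
Map7d2: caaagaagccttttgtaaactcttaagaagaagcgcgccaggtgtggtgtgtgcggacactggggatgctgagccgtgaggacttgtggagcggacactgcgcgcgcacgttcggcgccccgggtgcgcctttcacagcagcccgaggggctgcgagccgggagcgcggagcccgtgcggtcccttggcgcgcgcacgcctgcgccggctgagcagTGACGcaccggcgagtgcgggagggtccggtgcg
Macf1: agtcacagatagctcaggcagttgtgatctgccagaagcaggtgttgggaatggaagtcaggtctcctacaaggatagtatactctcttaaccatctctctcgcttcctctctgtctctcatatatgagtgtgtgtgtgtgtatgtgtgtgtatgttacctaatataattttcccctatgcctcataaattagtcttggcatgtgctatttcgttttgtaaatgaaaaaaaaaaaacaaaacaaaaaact
The windows of Map1b and Map7d2 are rich in G and C, at 66.4% and 69.2%, while that of Macf1 has 38.4%, against a median of 52.4% over 32851 windows of all genes. Map1b has 1 GC box, a motif found in 32.7% of all windows, and the other two have 0. Map7d2 has 1 CREB half-site, found in 17.8% of windows, and the other two have 0. The E box CANNTG, whose letters can overlap a TGACG match, occurs 1 time in Map1b, 1 time in Map7d2 and 3 times in Macf1, and 66.2% of all windows hold it. The core of the antioxidant response element, TGACNNNGC, which can share letters with TGACG, occurs in 10.2% of windows and in 0 of these 3. No motif of the 4 searched was thus shared by these 3 windows beyond the E box, and a match or its lack is a description of letters only.

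The classes differed widely in which of the genes they carried. Levels are given as UMIs of the gene in 1000000 UMIs of the class (CPM), with the exact Poisson 95% interval, which covers counting error only, as do all intervals and limits here. They compare classes within a gene. They do not compare genes. In neuron-like cells of both libraries together, Map1b stood at 1200 CPM (1080 to 1340), above every other class with at least 30 cells in each library. The 8 neuroblast-like cells followed at 789 CPM (599 to 1020), smooth muscle-like cells at 495 (397 to 609), oligodendrocyte precursor-like cells at 296 (135 to 562), ependymal-like cells at 172 (127 to 227) and oligodendrocyte-like cells at 153 (125 to 186). The intervals of the last 3 overlapped, and microglia-like cells were lowest of the compared classes at 14.3 (6.55 to 27.2). Neuron-like cells held 45.9% of the gene's 701 UMIs. Set against astrocyte-like cells, the log2 ratio of Map1b was 5.67 (4.99 to 6.43) in the control library and 5.78 (4.60 to 7.26) in the MNPQ library, so the difference between these classes was about as large in both.

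Map7d2, Stmn3, Map2 and Map1a were also highest in neuron-like cells among the compared classes. Map7d2 reached 224 CPM (171 to 289) there and 33.9 (21.5 to 50.8) in oligodendrocyte-like cells. Stmn3 reached 695 CPM (599 to 803) and 40.3 (29.0 to 54.5) in astrocyte-like cells, the next of the compared classes. Map2 reached 351 CPM (284 to 430), followed by astrocyte-like cells at 97.8 (79.8 to 119), and the intervals of neuron-like cells and of the 25 oligodendrocyte precursor-like cells, at 296 CPM (135 to 562), overlapped. Map1a, at 322 CPM (257 to 397) in neuron-like cells, was nearly as high in oligodendrocyte-like cells, at 243 (207 to 283), and these intervals overlapped too.

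Stmn4, Mapt and Stmn1 belonged to oligodendrocyte-like cells more than to neurons. Stmn4 stood at 2840 CPM (2720 to 2970) in oligodendrocyte-like cells and at 408 (335 to 492) in neuron-like cells, and 90.4% of its 2137 UMIs lay in the former. Mapt, the gene of tau, stood at 717 CPM (655 to 784) against 378 (308 to 459), with 71.3% of its 683 UMIs in oligodendrocyte-like cells. Stmn1 had 2630 CPM (2510 to 2750) against 1210 (1080 to 1350), and was higher still, at 4760 (4280 to 5290), in the 8 neuroblast-like cells. Those 4 control and 4 MNPQ cells were deep, with medians of 13140 and 5670 UMIs, and too few for a comparison between libraries. Markers of neurons were scarce in oligodendrocyte-like cells, at 97.3 (control) and 137 CPM (MNPQ) for 15 genes together, against 22000 and 21500 in neuron-like cells, while oligodendrocyte markers made up 2530 and 3610 CPM of neuron-like cells against 71000 and 64300 in their own class. The part of such foreign RNA in the neuronal levels of Stmn4, Mapt and Stmn1 was not tested.

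Map4 and Macf1 were spread over all compared classes. Map4 ranged from 56.6 CPM (43.1 to 73.0) in astrocyte-like cells to 191 (157 to 229) in endothelial-like cells, with neuron-like cells at 142 (101 to 195), which overlapped the latter. Macf1 was lower in neuron-like cells, at 262 CPM (204 to 331), than in astrocyte-like cells, at 465 (425 to 509), and endothelial-like cells, at 446 (394 to 502), and was lowest of the compared classes in oligodendrocyte-like cells, at 78.1 (58.5 to 102). The median member was 2.82 higher on the log2 scale in neuron-like than in astrocyte-like cells.

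**Figure D1:**
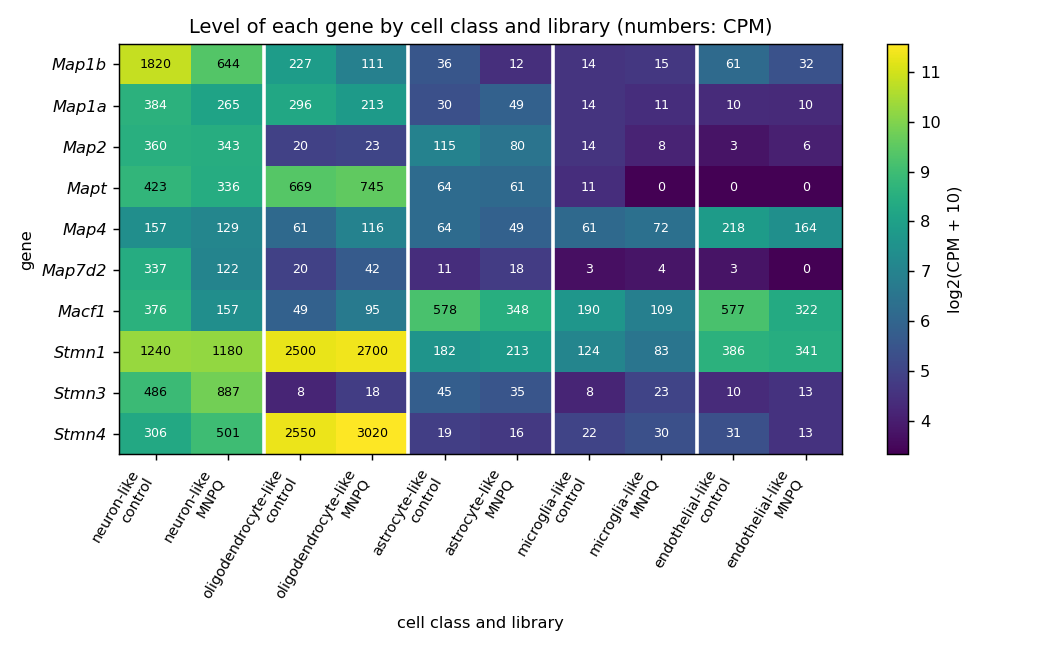
Level of each of the 10 genes (rows) in the 5 compared classes of each library (columns), coloured by log2(CPM + 10) with the CPM printed in each cell. Map1b is brightest in neuron-like cells, at 1820 and 644 CPM, and Stmn1 and Stmn4 in oligodendrocyte-like cells, at 2500 to 3020 CPM.

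Genes whose level ran most like that of a member over the 10 points of 5 classes and 2 libraries were named for likeness alone (Pearson r of log2(CPM + 10), genes with at least 100 UMIs, a description over points that share libraries and class totals). For Map1b these were Nbea (r 0.979) and Ylpm1 (0.968), for Map1a Vldlr (0.976) and Ncald (0.971), and for Map2 Zcchc18 (0.994) and the mitochondrial mt-Nd1 (0.990). Mapt ran with Acot7 (0.982) and Lrrn1 (0.980). The closest to Map4 were Riok3 (0.954) and Ddx50 (0.943), to Map7d2 Dnajb14 (0.973) and Vps41 (0.972), and to Macf1 Rnf215 (0.936) and Zeb1 (0.935). Among the stathmins, Stmn1 ran with Rcan2 (0.981) and Tulp4 (0.979), Stmn3 with Arhgef25 (0.986) and Cplx2 (0.985), and Stmn4 with Pex5l (0.994) and Tmem151a (0.988). Among the members themselves Map1a and Mapt had r 0.97, Stmn1 and Stmn4 0.92, Map2 and Stmn3 0.91, and Map1b and Map7d2 0.90, while Macf1 and Stmn4 ran in opposite directions at r -0.69.

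In neuron-like cells the 3 lowest members were Map1b, Map7d2 and Macf1, and the highest were Stmn3 and Stmn4. Map1b had 232 control and 90 MNPQ UMIs, or 1820 CPM (1590 to 2070) and 644 CPM (518 to 791). The log2 ratio of MNPQ over control was -1.50, with an exact conditional binomial 95% interval of -1.87 to -1.14, and the level intervals did not overlap. Map1b was seen in 81 of 116 control cells (69.8%, exact interval 60.6 to 78.0) and in 55 of 142 MNPQ cells (38.7%, 30.7 to 47.3). With each cell thinned to 500 UMIs, the depth that all cells reached, these shares were 58.6% and 25.4%. In microglia-like cells, which should lack the gene, 2.59% and 2.84% of cells had a Map1b UMI, at a median depth of 852 and 923 UMIs against 771 and 760.5 in neuron-like cells. The share in neuron-like cells was thus far above this background in both libraries.

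Map7d2 had 43 and 17 UMIs, or 337 CPM (244 to 454) and 122 CPM (70.8 to 195), a log2 ratio of -1.47 (-2.37 to -0.63). Macf1 had 48 and 22 UMIs, or 376 CPM (277 to 499) and 157 CPM (98.6 to 238), a log2 ratio of -1.26 (-2.06 to -0.50). For both genes the level intervals of the 2 libraries were apart, but they rest on far fewer molecules than those of Map1b. The remaining stabilising proteins had intervals that include 0: Map1a went from 384 to 265 CPM (log2 ratio -0.54, -1.19 to 0.11), Mapt from 423 to 336 CPM (-0.33, -0.93 to 0.26) and Map2 from 360 to 343 CPM (-0.07, -0.68 to 0.55). Map4, with 20 and 18 UMIs, was under the minimum of 60 UMIs set for a ratio to be counted.

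The stathmins did not share this direction. Stmn3 had 62 control and 124 MNPQ UMIs, or 486 CPM (372 to 623) and 887 CPM (738 to 1060), a log2 ratio of 0.87 (0.42 to 1.33). Stmn4 had 39 and 70 UMIs, or 306 CPM (217 to 418) and 501 CPM (390 to 633), a log2 ratio of 0.71 (0.13 to 1.32), and here the level intervals overlapped. Oligodendrocyte-like cells, which are rich in Stmn4, had 2550 and 3020 CPM of it, and their markers stood at 2530 CPM (control) and 3610 CPM (MNPQ) in neuron-like cells. Their part in the Stmn4 ratio was not tested. Stmn1 had 158 and 165 UMIs, or 1240 CPM (1050 to 1450) and 1180 CPM (1010 to 1370), a log2 ratio of -0.07 (-0.39 to 0.26). The ratio of Stmn3 was only 0.29 when each cell took its class from its own marker score and 0.11 when cells with mixed markers were left out, so its size depends on which cells are counted as neurons. Cells with mixed markers were 53 of 116 in the control library and 69 of 142 in the other. In them the UMIs of another class's markers reached a set fraction of those of the neuronal markers, even where both were few.

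**Figure D2:**
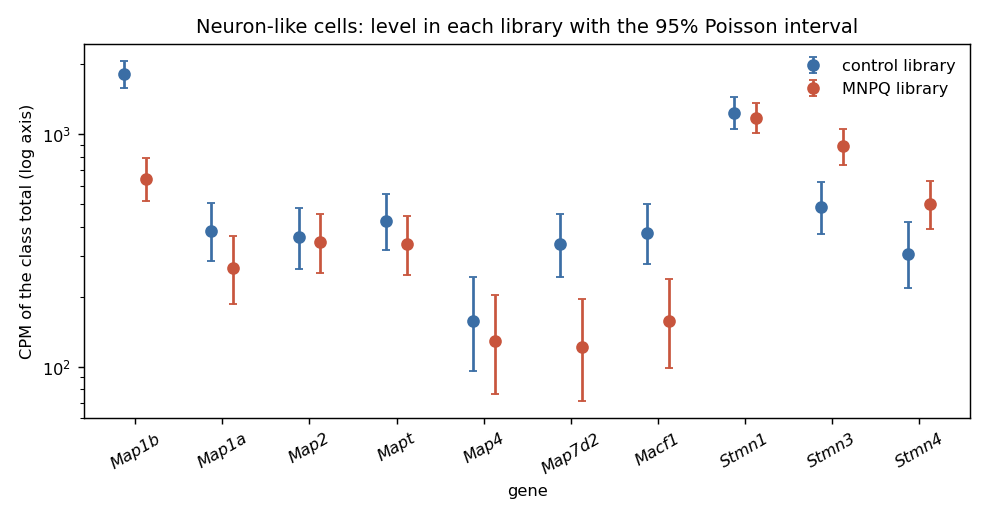
Level in neuron-like cells (CPM, log axis) of each gene in the control library (blue) and the MNPQ library (red), with the exact Poisson 95% interval as bars. The intervals are apart for Map1b, Map7d2, Macf1 and Stmn3 and overlap for the other members.

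Of the 9 members with at least 60 UMIs in neuron-like cells, 7 had a ratio below 0 and 3 were at least 2-fold lower, while none was 2-fold higher. Of all 716 genes with that many UMIs there, 3.21% were 2-fold lower and 3.35% were 2-fold higher, and 34.6% had a ratio below 0. Because such ratios were among the values that chose the list, nothing is read from its count. The median ratio of the 9 members was -0.33, beside 0.21 for the 716 genes. Under 10 of 18 alternatives the count of 3 became 1, since Map7d2 and Macf1 then had too few UMIs to be counted, while Map1b was 2-fold lower in each. Just inside the 2-fold mark stood Macf1 at -1.26, and just outside it Map1a at -0.54.

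The share of neuron-like cells with a UMI of Slc17a7 differed between the libraries. Cells with a UMI of Slc17a7, the vesicular glutamate transporter of cortical and hippocampal excitatory neurons, were 22 of 116 control cells (19.0%) and 65 of 142 MNPQ cells (45.8%). Thinned to 500 UMIs the shares were 9.48% and 31.0%. In microglia-like cells, which should lack the gene, 1.04% and 1.42% of unthinned cells had a UMI. This background was higher in the MNPQ library in astrocyte-like (0.619% and 3.01%), oligodendrocyte-like (0% and 2.56%) and endothelial-like cells (0% and 1.47%). The part of such background in the share of neuron-like cells was not tested. The log2 ratio of Slc17a7 itself was 0.92, so a different mix of neurons and a different level per cell cannot be told apart. Among cells with a Slc17a7 UMI, the log2 ratio of Map1b was -1.42 (-1.97 to -0.88), and among those without it was -1.62 (-2.13 to -1.13). Map1b was thus lower in both subsets. Map7d2 stood at -1.53 (-2.66 to -0.51) and Macf1 at -1.22 (-2.23 to -0.29) in cells without Slc17a7. With Slc17a7 they stood at -1.10 (-2.87 to 0.55) and -1.22 (-2.69 to 0.16), and both intervals include 0. Stmn3 had a ratio of 1.21 (0.47 to 2.01) with Slc17a7 and of 0.57 (-0.03 to 1.18) without, and Stmn4 1.31 (0.32 to 2.42) and 0.25 (-0.54 to 1.04). The difference between these subsets was not tested.

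Neuron-like cells fell into 8 clusters, again drawn without the 10 genes, whose weight differed between the libraries: cluster 5.1, led by Zcchc12 and Calb1, held 35 control and 13 MNPQ cells, and cluster 5.2, with Nptxr and Icam5 among its leading genes, held 5 and 21. Map1b was lower in the MNPQ library in 8 of 8 clusters, with log2 ratios from -2.22 to -0.66 and an interval below 0 in 6 of them. Macf1 was also lower in 8 of 8, but no cluster's interval excluded 0. Map7d2 was lower in 6, higher in 1 and unseen in 1 of the 8, and Stmn3 was higher in 5 and lower in 3. Of the 43 control UMIs of Map7d2, 18 lay in cluster 5.1 and 12 in cluster 5.5, which held 10 control and 4 MNPQ cells. In the other clusters the direction of Map7d2 rests on at most 7 UMIs per library. Depth gave the same picture for Map1b, with -1.41 (-1.92 to -0.91) in cells under 1000 UMIs and -1.62 (-2.18 to -1.09) in deeper cells.

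**Figure D3:**
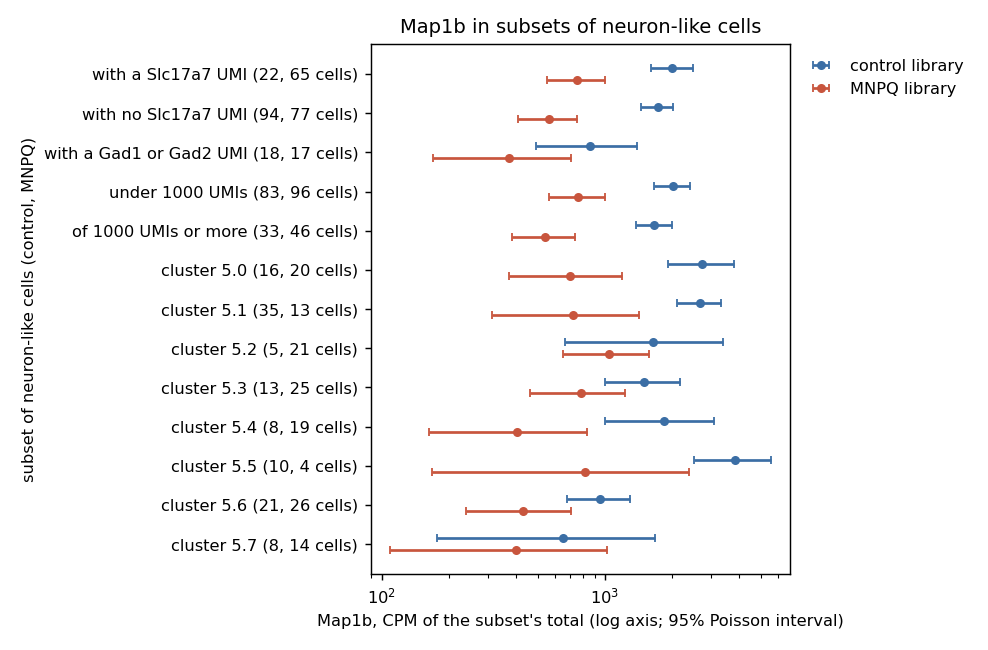
Map1b level (CPM of the subset's UMIs, log axis) in subsets of neuron-like cells, for the control library (blue) and the MNPQ library (red), with exact Poisson 95% intervals and the number of cells of each library in brackets. The MNPQ point lies to the left of the control point in each subset, with log2 ratios between -2.22 and -0.66 over the 8 clusters.

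Barcodes that the cell filter removed gave a further look at RNA the classes did not use. In them Map1b had 162 control and 38 MNPQ UMIs, or 782 and 368 CPM, a log2 ratio of -1.09 (-1.64 to -0.57). Macf1 stood at 203 and 96.8 CPM (-1.07, -2.23 to -0.05) and Map2 at 227 and 96.8 CPM (-1.23, -2.38 to -0.22). These barcodes come from the same libraries and are no replicate.

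In neuron-like cells the ratio ran with the length of the transcript, a description made after the values were seen. Over 633 genes with at least 60 UMIs, mitochondrial and ribosomal protein genes left out, the log2 ratio and log2 length of the longest transcript had r -0.369. The median ratio was 0.41 in the 158 genes with the shortest transcripts (up to 1791 bases) and -0.19 in the 159 with the longest (5253 bases or more). Of the 38 genes of 10000 bases or more, 15.8% were 2-fold lower and the median was -0.32. Map1b, Map1a and Macf1 are among these long transcripts and the 3 stathmins are among the short ones, whereas Map7d2, at 3670 bases, is neither. Map2 (6258 bases, ratio -0.07) and Mapt (5253 bases, ratio -0.33) are among the 159 longest. Stmn1, at -0.07, lies below the 0.41 median of the shortest. The same relation was seen in astrocyte-like cells (r -0.390 over 2442 genes) and endothelial-like cells (r -0.355 over 1715), and less in oligodendrocyte-like (r -0.137 over 1701) and microglia-like cells (r -0.159 over 1328). The nuclear RNA Malat1 moved with it, from 6.99% to 2.95% of the UMIs of neuron-like cells, and ribosomal protein genes went from 3.23% to 4.22%. The part of transcript length in the members' ratios was not tested.

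**Figure D4:**
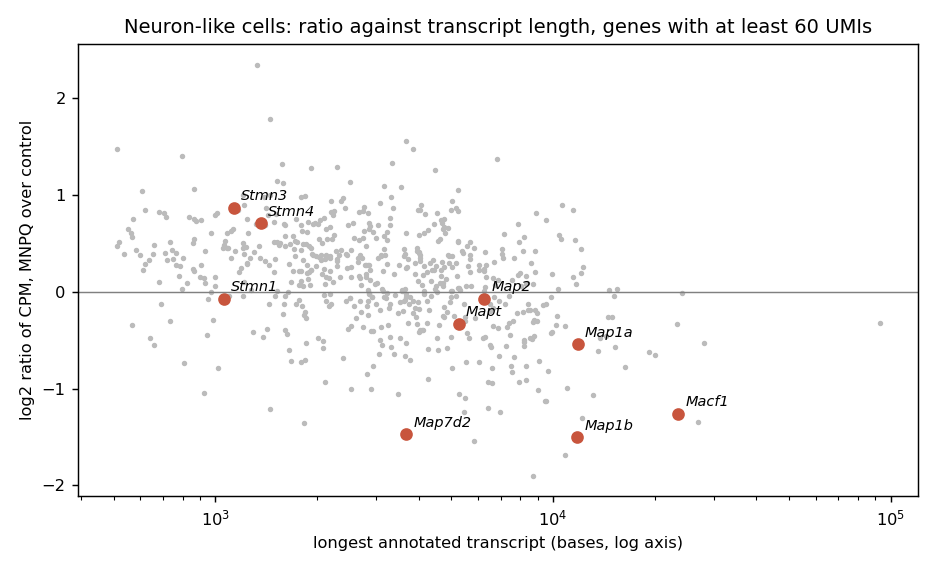
Log2 ratio of MNPQ over control in neuron-like cells (y) against the longest annotated transcript in bases (x, log axis) for 633 genes with at least 60 UMIs (grey), with the 9 members among them in red. Map1b at -1.50 and Macf1 at -1.26 lie below the -0.32 median of genes of 10000 bases or more, and Stmn3 at 0.87 and Stmn4 at 0.71 above the 0.41 median of the 158 shortest. Map2, among the longest, lies above their -0.19 median at -0.07, and Stmn1, among the shortest, lies below theirs at -0.07.

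Outside neurons, the level of Macf1 was lower in the MNPQ library in 3 more classes. In astrocyte-like cells it had 307 and 178 UMIs, or 578 CPM (515 to 646) and 348 CPM (299 to 404), a log2 ratio of -0.73 with an interval below 0. Endothelial-like cells had 169 and 100 UMIs, or 577 and 322 CPM (-0.84, -1.21 to -0.48), and microglia-like cells 69 and 29 UMIs, or 190 and 109 CPM (-0.80, -1.48 to -0.15). None of these reached 2-fold, a mark that 2.65% of genes in astrocyte-like, 1.44% in endothelial-like and 1.69% in microglia-like cells passed in the lower direction. Macf1 is among the genes with transcripts of 10000 bases or more. Of these, 87.9% in astrocyte-like, 90.7% in endothelial-like and 85.7% in microglia-like cells were below 0, with medians of -0.56, -0.46 and -0.63. The part of transcript length in these Macf1 ratios was not tested. The astrocyte-like clusters were unevenly filled: the 2 clusters richest in Macf1 gave -0.58 (-1.01 to -0.17) in cluster 10, with 85 control and 23 MNPQ cells, and -0.45 (-0.92 to 0.03) in cluster 9, with 27 and 46 cells. Cluster 1, with 152 and 223 cells and 11 and 23 Macf1 UMIs, gave 0.54 (-0.55 to 1.73). Cluster 8, with 59 and 7 cells and 14 and 2 Macf1 UMIs, gave 0.34 (-2.84 to 2.46). No cluster was as low as the -0.73 of the whole class. The part of the uneven filling in that ratio was not tested. In endothelial-like cells hemoglobin and other erythroid markers stood at 10800 and 28200 CPM. With hemoglobin left out of the totals, along with mitochondrial, ribosomal and nuclear RNAs, the ratio of Macf1 there was -0.82.

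Oligodendrocyte-like cells showed small differences in the genes they express most. Stmn4 had 628 and 1303 UMIs, or 2550 CPM (2350 to 2750) and 3020 CPM (2850 to 3180), a log2 ratio of 0.24 (0.11 to 0.38). Stmn1 had 618 and 1167 UMIs (0.11, -0.03 to 0.25) and Mapt 165 and 322 UMIs (0.16, -0.12 to 0.44). These sums rest on deep cells, since 54 of 73 control and 80 of 117 MNPQ cells formed 1 cluster with median depths of 4648 and 5000 UMIs. With every cell thinned to 500 UMIs the ratios turned to -0.16 for Stmn4 and -0.86 for Mapt, and the share of cells with a Stmn4 UMI was then 58.9% and 57.3%. No direction is therefore given for Stmn4 and Mapt in these cells.

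Map1b was at 227 and 111 CPM in oligodendrocyte-like cells (56 and 48 UMIs, log2 ratio -1.03, -1.62 to -0.45), which would place it among the 0.839% of genes there that were 2-fold lower. However, 36 of its 56 control UMIs (64.3%) came from 1 cell. Without the cell richest in the gene in each library, 20 and 42 UMIs remained, at 85.6 and 97.6 CPM, and the ratio was 0.19 (-0.61 to 1.04). Astrocyte-like cells had 19 and 6 Map1b UMIs, too few to be counted, at 35.7 and 11.7 CPM (log2 ratio -1.61, -3.22 to -0.22), and the ratio was -1.71 without the richest cells, with an interval below 0. The 15 control and 20 MNPQ smooth muscle-like cells had 42 and 46 UMIs, or 654 and 404 CPM (-0.69, -1.33 to -0.05). In smooth muscle-like cells, too, 1 cell held 38.1% of the control UMIs, and 1 cell held 13% of the MNPQ UMIs. Endothelial-like cells had 18 and 10 UMIs (-0.93, -2.21 to 0.26) and microglia-like cells 5 and 4 (0.13, -2.20 to 2.35), also too few to be counted. With few UMIs or much of them in 1 cell, no direction is given for Map1b outside neuron-like cells. Whether its lower level is particular to neuron-like cells was not tested. In neuron-like cells the richest cell held 5.17% of control and 6.67% of MNPQ Map1b UMIs, and leaving it out left the ratio at -1.50. In oligodendrocyte-like cells Map1a had 73 and 92 UMIs (296 and 213 CPM, -0.47, -0.93 to -0.01), and its ratio was 0.43 with every cell thinned to 500 UMIs. Map4 in oligodendrocyte-like cells had 15 and 50 UMIs, or 60.8 and 116 CPM (0.93, 0.07 to 1.87). This was just short of the 2-fold mark that 1.01% of genes there passed upward.

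**Figure D5:**
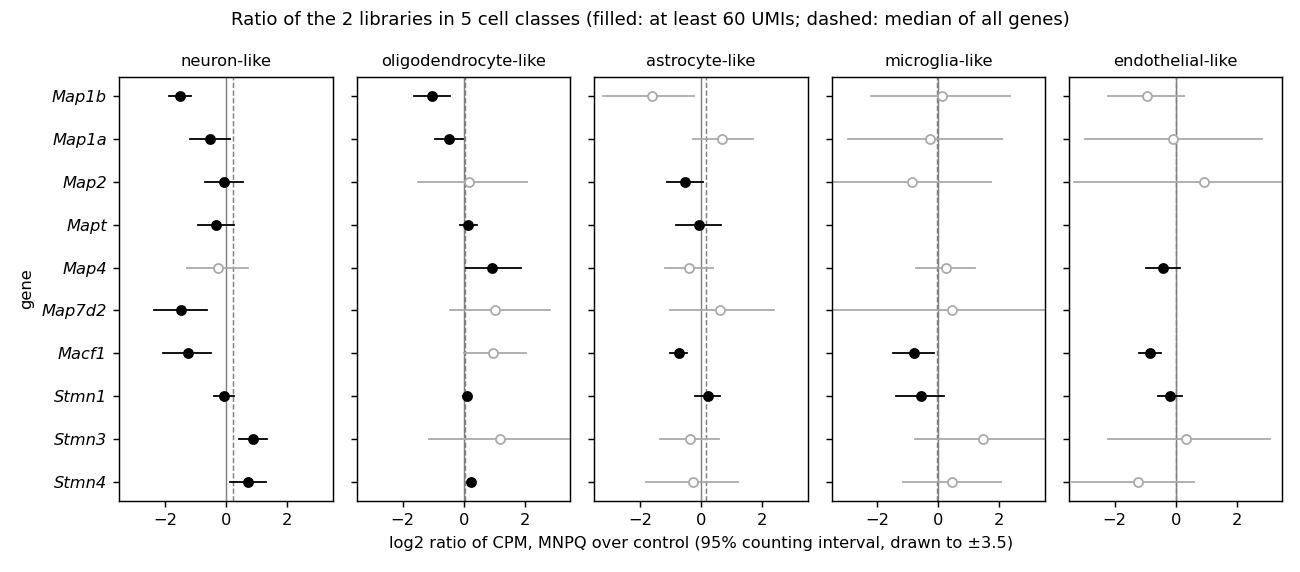
Log2 ratio of MNPQ over control with its 95% counting interval for each gene in the 5 compared classes; filled points have at least 60 UMIs, open points fewer, the solid line is 0 and the dashed line the median of all genes with at least 60 UMIs. Macf1 lies left of 0 in 4 classes (-1.26, -0.73, -0.80 and -0.84) and right of 0 in oligodendrocyte-like cells (0.96), and genes with 0 UMIs in a library have no point.

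The wider machinery of microtubules was described by lists of genes with at least 20 UMIs in neuron-like cells, where all 2868 such genes had a median ratio of 0.09 and 45.3% were below 0. Kinesin and dynein subunits, the motors that walk on microtubules, were mostly lower: 15 of 20 measured genes were below 0, with a median of -0.37. The one 2-fold lower motor was Kif21a, a kinesin that restrains microtubule growth, at 478 and 207 CPM (-1.20, -1.89 to -0.54). Kif1a, which carries synaptic vesicle precursors, stood at 635 and 443 CPM (-0.52, -1.02 to -0.02), and Dynll1, a light chain of dynein, was higher at 509 and 908 CPM (0.84, 0.39 to 1.29). The longest transcripts of Kif21a, Kif1a and Dynll1 have 6439, 8206 and 2242 bases. Of genes with 5253 bases or more and at least 60 UMIs, 61% were below 0. The part of transcript length in the ratios of the motors was not tested. Tubulins, the building blocks themselves, had a median of 0.19 over 9 genes, of which 5 were above 0 and 4 below. Of these, 1 with under 60 UMIs was 2-fold higher, as were 192 of all 2868 genes. The 2 tubulins with the most UMIs were both below 0: Tuba1a at 995 and 894 CPM (-0.15, -0.52 to 0.21) and Tubb2a at 525 and 401 CPM (-0.39, -0.93 to 0.14).

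Other structural microtubule proteins had a median of 0.19 over 5 genes, led by Dclk1, or doublecortin-like kinase, at 407 and 465 CPM (0.19, -0.36 to 0.75). Tppp, of the same list, stood at 149 and 229 CPM (0.62, -0.24 to 1.52). Proteins of the plus end and cross-linkers had a median of -0.04, with 8 of 12 genes below 0, among them Dst, the closest relative of Macf1, at 360 and 286 CPM (-0.33, -0.98 to 0.31). Mapre2 was among those above 0, at 110 and 172 CPM (0.65, -0.36 to 1.71). Kinases and phosphatase subunits that act on these proteins had a median of 0.17 over 11 genes. Gsk3b, a kinase of tau and Map1b, was lower at 353 and 207 CPM (-0.77, -1.49 to -0.06), and Cdk5r1, the activator of the tau kinase Cdk5, was at 266 and 322 CPM (0.27, -0.40 to 0.96). Of the minus-end and severing proteins only Camsap1 had enough UMIs, at 110 and 78.7 CPM (-0.48, -1.76 to 0.77). Camsap2, with 7 and 11 UMIs, was under the minimum, at 54.8 and 78.7 CPM (0.52, -0.98 to 2.13). A contrast list of neurofilaments and actin-linked genes had a median of -0.39 over 11 genes, but of 0.18 over the 7 with at least 60 UMIs. It held Actb, the cytoplasmic actin gene, at 564 and 1370 CPM (1.28, 0.88 to 1.69), and Cfl1 at 548 and 737 CPM (0.43, -0.03 to 0.89).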

How the data were processed

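The authors deposited filtered matrices of counts (whole UMIs per gene and barcode), made with Cell Ranger 3.0.2 per the file headers, on mm10 per the submitters' processing notes. How barcodes were selected is not given in the sources used here. The control matrix sums to 2209810 UMIs and the MNPQ matrix to 2061939. From these counts, cells were clustered with scanpy 1.11.5 (10000 per cell, log, 2000 variable genes without the 10 members and the microtubule lists, 30 components, 15 neighbours, Leiden resolution 1.0). Clusters of 40 or more cells that mixed markers were split once more with 8 neighbours. Of 42 clusters, 2 stayed unnamed. Scrublet called 9 control and 6 MNPQ cells doublets, and they were kept in.

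UMIs were summed per class and library. Counting intervals are at 95%. The arithmetic of the interval was checked on simulated class sums drawn with counting error only. For genes with no change it held the true value in 96.1% of 389 genes. Coverage near 95% was built into this simulation, which held no spread between cells, mice or libraries and cannot speak to it. Raised genes enlarged the simulated treated total, so unchanged genes had a median log2 ratio of -0.35, and the true value was taken with that shift. The 2-fold mark was therefore passed by 93.1% of genes lowered 2-fold but by 4% of those raised 2-fold. Members and lists were chosen with earlier results of these data known. The text names all members, the 2 genes of each list with the most UMIs in neuron-like cells, and those 2-fold changed with at least 60 UMIs. It also names the 2 genes most like a member, and Th and Slc6a3. Naming Slc17a7, the cluster genes, Malat1 and the overlapping genes was decided after their values were seen. Alternatives were other cell filters, resolutions, class assignment, scalings, weights, thinning and UMI minimums. Protein sequences were not used here.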

Additional observations from a re-analysis of the deposited data

Results flagged for a closer look

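Macf1 was flagged because its ratio pointed in opposite directions in different classes. The log2 ratio of MNPQ over control was -1.26 in neuron-like, -0.73 in astrocyte-like, -0.80 in microglia-like and -0.84 in endothelial-like cells, each with an interval below 0, but 0.96 (0.01 to 2.03) in oligodendrocyte-like cells, with 12 control and 41 MNPQ UMIs. The difference between classes was not tested. In oligodendrocyte-like cells the ratio was -0.27 with every cell thinned to 500 UMIs and -0.50 with cells thinned to 1000. Thinning to 1000 also left out the 20 control and 42 MNPQ cells under that depth. Endothelial markers there stood at 77.0 CPM (control) and 442 CPM (MNPQ), and their part in the Macf1 ratio was not tested.

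A signal above the control level was also seen in barcodes that the cell filter removed, which lie outside the classes. There the log2 ratio was 1.06 (0.23 to 1.89) for Map1a, with 26 and 27 UMIs, 1.16 (0.16 to 2.16) for Mapt, with 18 and 20 UMIs, and 0.90 (0.11 to 1.70) for Stmn4, with 30 and 28 UMIs.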

How the results depend on the processing

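No paired analysis was possible because each group has 1 library. Under 17 alternatives Map1b, Map7d2 and Macf1 were below 0 in neuron-like cells, with ranges of -1.76 to -1.12, -2.94 to -0.95 and -2.04 to -0.88, and Stmn3 and Stmn4 were above 0, at 0.11 to 0.97 and 0.25 to 0.87, while Map2 (-0.61 to 0.32) and Stmn1 (-0.61 to 0.31) changed sign. Thinning to 1000 UMIs left out cells under that depth, among them 83 control and 96 MNPQ neuron-like cells. The -2.94 of Map7d2 came from this setting and rests on 13 UMIs. Alternatives chosen after seeing the data left out cells with mixed markers, left out the cell with the most UMIs of a gene, weighted neuron-like clusters equally or took only cells with no Slc17a7 UMI. The count of 3 members 2-fold lower in neuron-like cells was 1 in 10 settings: the stricter cell filter, resolution 2.0, marker scores per cell, the members left in the clustering, thinning to 1000 or 500 UMIs, the deepest cells left out, a minimum of 100 UMIs, mixed cells left out, and cells with no Slc17a7 UMI only. In these Map7d2 and Macf1 had under 60 UMIs, or under 100 in the minimum of 100, and with no minimum 2 or 3 of these 3 genes were 2-fold lower in each. The median of the members there, -0.33, was -0.12 with no cell filter, -0.07 with marker scores and with a minimum of 100 UMIs, -0.54 centred on all genes and -0.14 without mixed cells. In oligodendrocyte-like cells the median of 0.13 became 0.00 under the stricter filter and -0.02 with cells weighted equally. The level of the members in neuron-like over astrocyte-like cells, 2.82, was 3.06 under the stricter filter, 3.11 and 3.01 at resolutions 0.5 and 2.0, 3.01 with the members in the clustering, 2.70 with cells weighted equally and thinned to 500 UMIs, and 2.95 thinned to 1000 and without mixed cells. The ratio of Map1b in oligodendrocyte-like cells turned to 0.32 without called doublets and without the 10 deepest cells, 0.15 and 0.49 thinned to 1000 and 500 UMIs, and 0.19 without its richest cell. There Map1a turned to 0.43 and Stmn4 to -0.16 thinned to 500 UMIs, and Macf1 to -0.50 and -0.27 thinned to 1000 and 500. The contrast list moved from -0.39 to 0.18 with a minimum of 60 UMIs, which left 7 of its 11 genes. Beyond what is stated, the cause was not tested. Of 393 member ratios under alternatives, 361 stayed within their counting interval. About 50.1% of control and 52.1% of MNPQ cells had under 1000 UMIs, which limits ratios of single genes mostly to the better captured ones.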
